A study of Mus musculus with 30 samples.

Results

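The AP-1 transcription factors described here are 10 genes, Fos, Fosb, Fosl1, Fosl2, Jun, Junb, Jund, Atf3, Maff and Batf, measured in whole mouse lung during exposure to 10% oxygen, out of 15964 genes named on the arrays. Every probe set of the 3 array types whose annotation carried exactly 1 of these symbols was taken, which gave 19 of 36701 probe sets (14 on the A arrays, 4 on B and 1 on C). Of these, 12 probe sets of 8 genes were bright enough to be tested, and Fosl1 and Batf had none. Lungs were taken for total RNA after 10 h, 2 d, 4 d or 6 d in a hypoxic chamber at 10% oxygen, and a group titled Norm is taken as the baseline. There were 2 samples in each of the 5 groups, called 1a and 1b. The labels give no strain, age, sex or genotype, and the description attached to Norm speaks of a rejection, a word of transplant medicine that its title does not carry. Nothing says that 1a and 1b were separate animals, and p-values here thus reflect a spread that may be no more than technical. The series title concerns remodelling of vessels after pulmonary hypertension, and the comparisons ask how each factor's transcript stood at each time in low oxygen.

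AP-1 is a family of dimers built from basic leucine zipper (bZIP) proteins. Fos proteins need a Jun partner to bind DNA, whereas Jun proteins also pair with each other, and the dimers bind a short palindromic site (the TPA response element) or the related cyclic AMP response element. Fos, Fosb, Jun, Junb and Atf3 are immediate early genes, whose transcripts appear within minutes of growth factors, stretch or stress and are short-lived, while Jund is expressed widely at rest. Atf3 and Batf are related bZIP proteins that pair with Jun proteins, and Maff is a small Maf protein without an activation domain of its own.

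The regions just before the transcription start of Fos, Fosl2, Jun, Junb and Atf3 are shown because a probe set of each of these 5 genes stood higher in both 10 h samples than on every other array. The windows are the 250 bases before the start in RefSeq, build GRCm38.p6, read 5′ to 3′ on the strand of the gene. Capitals mark matches on either strand to TGACG, the core of the cyclic AMP response element, or to the variant site TGACATCA known from the Jun promoter.
Fos, chr12:85473640-85473889, plus strand: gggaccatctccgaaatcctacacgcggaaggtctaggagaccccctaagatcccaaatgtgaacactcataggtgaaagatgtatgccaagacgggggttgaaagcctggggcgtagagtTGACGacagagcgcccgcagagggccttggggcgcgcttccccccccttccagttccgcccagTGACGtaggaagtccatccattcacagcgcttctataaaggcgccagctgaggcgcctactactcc
Junb, chr8:84978749-84978998, minus strand: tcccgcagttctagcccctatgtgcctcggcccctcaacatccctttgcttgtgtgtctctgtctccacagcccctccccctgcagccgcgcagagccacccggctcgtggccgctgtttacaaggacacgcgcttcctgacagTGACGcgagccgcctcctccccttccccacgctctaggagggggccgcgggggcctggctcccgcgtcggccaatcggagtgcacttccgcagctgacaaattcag
Atf3, chr1:191183334-191183583, minus strand: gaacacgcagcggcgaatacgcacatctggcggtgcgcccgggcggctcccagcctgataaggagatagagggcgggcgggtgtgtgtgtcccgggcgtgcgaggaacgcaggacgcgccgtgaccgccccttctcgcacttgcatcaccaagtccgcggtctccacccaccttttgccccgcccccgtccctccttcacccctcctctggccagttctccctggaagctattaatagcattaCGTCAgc
Jun, chr4:95052223-95052472, minus strand: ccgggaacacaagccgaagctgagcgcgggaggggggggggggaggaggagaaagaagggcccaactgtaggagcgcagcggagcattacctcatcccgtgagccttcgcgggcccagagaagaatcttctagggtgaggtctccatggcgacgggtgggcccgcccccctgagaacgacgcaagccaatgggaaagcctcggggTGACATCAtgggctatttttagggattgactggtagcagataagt
Fosl2, chr5:32136222-32136471, plus strand: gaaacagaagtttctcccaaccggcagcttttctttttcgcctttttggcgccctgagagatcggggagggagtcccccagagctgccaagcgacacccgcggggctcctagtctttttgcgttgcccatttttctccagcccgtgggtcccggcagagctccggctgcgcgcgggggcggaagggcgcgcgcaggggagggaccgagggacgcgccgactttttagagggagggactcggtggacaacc
The Fos window held TGACG at -129 to -125 and at -66 to -62, counted from the start with the base before it as -1. Junb held it at -106 to -102, and Atf3, on the other strand, at -7 to -3. The Jun window held TGACATCA at -45 to -38, and the Fosl2 window held none of the motifs searched. Of the 10 genes, 9 had a window, with Fosl1 named only. Maff had 3 of the 11 windows, for different starts, and a gene is counted when any of its windows holds a match. TGACG stood in 6 of the 9 (Fos, Fosb, Junb, Atf3, Maff and Batf), against 19.8% of 27025 genes, and TGACATCA in Jun and Maff, against 3.41% of genes. The full cyclic AMP site TGACGTCA, which holds TGACG on both strands, stood in Maff alone (1.77% of genes), and the TPA site TGACTCA in none of the 9 (5.16% of genes). These matches describe the letters of a window and do not show binding.

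1 array entered no test: a Norm 1a array with an A title was found among the B values, with whose ranks it was uncorrelated (Spearman -0.00277 to 0.00963). The A arrays therefore have 1 Norm array (1b), and the remaining 29 arrays were used, with Spearman correlations of 0.872 to 0.971 within a pair. The Gapdh control for RNA integrity, given as its 3′ signal over its 5′ signal, was 3.64 to 4.60 on the 2 d arrays and 0.786 to 1.68 on all others. By accession, arrays of 2 d and 6 d form a single run of deposits, apart from the others. Setting 2 d or 6 d against Norm crosses runs, so that run and time cannot be told apart, whereas 4 d minus 10 h and 6 d minus 2 d stay on the same side. Lung was borne out by its markers, with 4 to 5 of 5 alveolar type 2 genes, 4 of 4 alveolar type 1 genes and 8 to 9 of 9 endothelial genes above the floor on every A array. In whole lung, fewer cells of a type and less RNA per cell cannot be told apart. Whether sample letters match across array types could not be told, since deviations of A arrays correlated with those of B and C arrays only weakly (r -0.0402 to 0.179).

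At 10 h, the tested probe sets of Fos, Junb and Atf3 read above the Norm array in both samples. At 4 d they read below both 10 h samples, though Fos in 4 d 1b and Atf3 104156_r_at still read above Norm. Across the 12 tested probe sets, every 10 h array lay above every other array in 6, belonging to Fos, Fosl2, Jun, Junb and Atf3, against 3.82% of all 25801 tested probe sets. This pattern was chosen after the values were seen. Intensities are the deposited linear signals, values under a floor of 236.05 (A), 297.36 (B) or 200.93 (C) were raised to it for testing, and each change is a difference of log2 values ± the standard error (SE) from limma. No AP-1 probe set passed an adjusted p of 0.05 (limma, Benjamini-Hochberg over all tested probe sets) for 10 h minus Norm, and neither did any other probe set (0% called, smallest adjusted p = 0.0743). At an unadjusted p under 0.05, 3 of 12 read higher and 0 lower, against 3.21% and 2.9% of all probe sets. The median change of the 12 was 0.39, against 0 over all tested probe sets, with 10 of 12 estimates above 0 (48.6% of all). All 10 h arrays lay above all Norm arrays in 8 of 12, against 20.1% of all. That share may be too low a comparator. Fewer Norm arrays were used on A than on B or C, so the order arises more easily there. Most of the 12 are on A, whereas 17409 of the 25801 tested probe sets are on B and C. The share of 3.82% pools the array types in the same way.

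**Figure D1:**
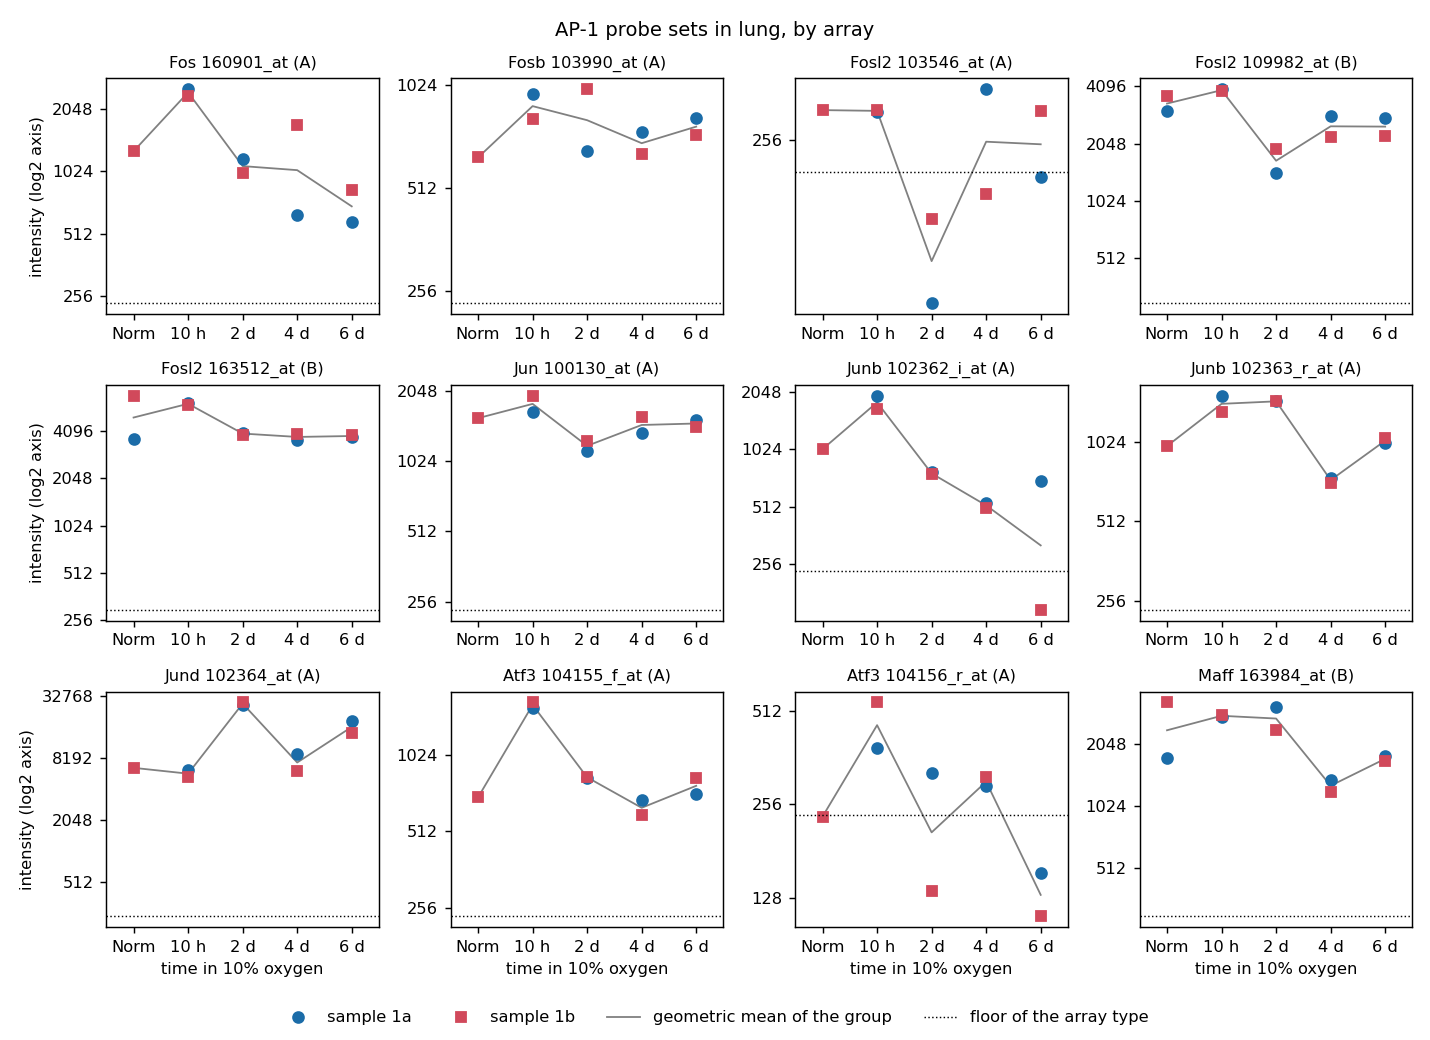
Intensity (log2 axis) of the 12 tested AP-1 probe sets in each array, by time in 10% oxygen, with Norm at the left; circles are sample 1a, squares sample 1b, the grey line joins geometric means and the dotted line is the floor. Both 10 h samples of Fos (2547 and 2370) and Atf3 104155_f_at (1583 and 1662) stand above all other arrays, and Jund is highest at 2 d (27084 and 28750).

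Fos, the founding member and the partner of Jun in the classical dimer, had an intensity of 1279 in Norm, 2547 and 2370 at 10 h, 1171 and 1003 at 2 d, 631 and 1703 at 4 d, and 581 and 827 at 6 d. The 10 h pair stood above all other arrays, and the 4 d pair was far apart. The change was 0.94 ± 0.50 (SE) for 10 h minus Norm (adjusted p = 0.897, limma) and -1.25 ± 0.41 for 4 d minus 10 h (adjusted p = 0.474). The second value rested on the 4 d pair: it was -0.53 without 4 d 1a and -1.96 without 4 d 1b. Fosb, a close relative of Fos, read 629 in Norm, 966 and 817 at 10 h, 656 and 996 at 2 d, 747 and 643 at 4 d, and 821 and 730 at 6 d. All hypoxia arrays of Fosb lay above the single Norm array, by 0.50 ± 0.32 at 10 h (adjusted p = 0.910), and the 4 d pair lay below the 10 h pair.

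Fosl2, also called Fra-2, is a Fos relative without the activation domain of Fos, and 3 of its probe sets were tested. On B, 109982_at read 3028 and 3660 in Norm, 3962 and 3865 at 10 h, 1440 and 1931 at 2 d, 2874 and 2223 at 4 d, and 2810 and 2258 at 6 d. The 10 h pair was the highest and the 2 d pair the lowest of all arrays. Also on B, 163512_at read 3635 and 6897 in Norm, 6235 and 6021 at 10 h, 4014 and 3901 at 2 d, 3589 and 3950 at 4 d, and 3750 and 3886 at 6 d. The Norm pair of 163512_at was so far apart that it spanned all other arrays but 1. On A, 103546_at stayed near the floor, between 169 and 292 on the 9 arrays. The 3 probe sets did not follow the same course.

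Jun, the main partner of the Fos proteins, read 1564 in Norm, 1661 and 1952 at 10 h, 1136 and 1247 at 2 d, 1357 and 1576 at 4 d, and 1541 and 1429 at 6 d. The 10 h pair was the highest and the 2 d pair the lowest, within a narrow range: the change was 0.20 ± 0.20 for 10 h minus Norm (adjusted p = 0.961, limma) and -0.39 for 2 d minus Norm (adjusted p = 0.337). Junb, a Jun relative that is a weaker activator in many settings, had 2 tested probe sets whose suffixes mark incomplete or less specific probe selection. The first, 102362_i_at, read 1026 in Norm, 1961 and 1668 at 10 h, 774 and 756 at 2 d, 537 and 503 at 4 d, and 699 and 146 at 6 d. The second, 102363_r_at, read 989 in Norm, 1536 and 1332 at 10 h, 1461 and 1462 at 2 d, 751 and 718 at 4 d, and 1017 and 1057 at 6 d. Both showed 10 h above Norm and 4 d below it, but at 2 d the first lay below Norm and the second above it. The change for 10 h minus Norm was 0.82 ± 0.53 for the first (adjusted p = 0.910) and 0.53 ± 0.20 for the second (adjusted p = 0.743).

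Atf3, a stress-induced factor that represses many promoters as a homodimer, had its largest signal at 10 h. The probe set 104155_f_at, whose suffix marks probes that may match a gene family, read 699 in Norm, 1583 and 1662 at 10 h, 834 and 843 at 2 d, 679 and 594 at 4 d, and 720 and 837 at 6 d. The 10 h pair stood clear of all others, at 1.21 ± 0.24 over Norm (unadjusted p = 0.000863, adjusted p = 0.348, limma). The probe set 104156_r_at read 234 in Norm, 388 and 544 at 10 h, 322 and 135 at 2 d, 292 and 314 at 4 d, and 154 and 112 at 6 d. Since Norm lay under the floor there, its change at 10 h was at least 0.96 (adjusted p = 0.594). Maff, on B, read 1751 and 3281 in Norm, 2792 and 2847 at 10 h, 3113 and 2401 at 2 d, 1376 and 1205 at 4 d, and 1789 and 1694 at 6 d. Its Norm pair spanned the 10 h and 2 d arrays, and the 4 d pair was the lowest. The change for 4 d minus Norm was -0.90 ± 0.26 (adjusted p = 0.620), or -1.35 without Norm 1a and -0.44 without Norm 1b.

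Markers of muscle moved beside the 10 h values. On the A arrays 3 and 0 of 10 skeletal muscle genes were above the floor at 10 h, with summed intensities of 1608 and 1157, against 8 genes and 10543 in Norm. The 8 cardiac muscle genes summed to 19378 and 21340 at 10 h, against 24441 in Norm, and over all array types 7 of 8 tested cardiac genes read lower, 5 of them at an unadjusted p under 0.05. The 7 smooth muscle genes summed to 24895 and 29362 at 10 h, against 19270 in Norm, and 8 macrophage genes to 22942 and 26767 at 10 h, against 31027 in Norm. Their part in the AP-1 values was not tested. Summed intensities over all A arrays were 6368 to 8227 for 7 neutrophil genes and 3032 to 5521 for 7 lymphocyte genes.

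Between 10 h and 4 d, which stand on the same side of the deposit runs, 10 of the 12 AP-1 probe sets had both 4 d arrays below both 10 h arrays, against 17.5% of all tested probe sets, and 11 had an estimate below 0 (48.5% of all). None passed an adjusted p of 0.05 (limma), where 0.0233% of all did. At an unadjusted p under 0.05, 8 of 12 read lower and 0 higher, against 4.35% and 3.73% of all. The 8 belonged to Fos, Fosl2, Junb, Atf3 and Maff, and the median of the 12 was -0.67, against 0 over all tested probe sets. Without 10 h 1a, 10 h 1b or 4 d 1a the count was 5 of 12. This comparison shares the 10 h arrays with 10 h minus Norm, so the values are not independent of those above.

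Atf3 104155_f_at came nearest to the threshold in 4 d minus 10 h, at -1.35 ± 0.20 (adjusted p = 0.0865, limma). Without 4 d 1a its change was -1.45, and without 4 d 1b -1.26. Junb read -1.80 ± 0.44 (adjusted p = 0.279) and -0.96 ± 0.17 (adjusted p = 0.152) on its first and second probe sets, with each 4 d array under each 10 h array. Maff read -1.13 ± 0.26 (adjusted p = 0.236), and Fosl2 -0.63 ± 0.20 on 109982_at (adjusted p = 0.450) and -0.70 ± 0.25 on 163512_at (adjusted p = 0.498). Jun and Fosb were lower by less, at -0.30 and -0.36 (adjusted p = 0.701 and 0.778). Jund alone had an estimate above 0, at 0.36 ± 0.25 (adjusted p = 0.758). Smooth muscle markers stood lower beside these, with summed intensities of 24225 and 16053 at 4 d against 24895 and 29362 at 10 h, and skeletal muscle markers higher, at 5267 and 8754 at 4 d against 1608 and 1157 at 10 h. All 10 tested macrophage genes read higher, none called, with summed intensities of 30288 and 29781 at 4 d against 22942 and 26767 at 10 h. The part of these markers was not tested.

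Within the other deposit run, 6 d minus 2 d gave no call among the 12 (0.062% of all passed). At an unadjusted p under 0.05, 3 of 12 read lower (6.31% of all), the second Junb probe set at -0.50, Jund at -0.76 and Maff at -0.65, and Fosl2 109982_at read higher at 0.60 (6.71% of all). The count of 3 was 1 without 2 d 1a or without 6 d 1b. When late times (4 d and 6 d) were set against early ones (10 h and 2 d), none of the 12 was called (0.0155% of all), while 6 of 12 read lower at an unadjusted p under 0.05 (5.45% of all). These were both probe sets of Junb (-1.36 ± 0.31 and -0.73 ± 0.12), both of Atf3 (-0.73 ± 0.14 for 104155_f_at), Maff (-0.89 ± 0.19) and Fos (-0.95 ± 0.29), with adjusted p-values of 0.139 to 0.410 (limma). Without 2 d 1a or 6 d 1a the count was 4 of 12. Fosb, Jun, Jund and Fosl2 on 103546_at and 109982_at lay between -0.21 and 0.02, and Fosl2 163512_at at -0.38. Beside these late minus early values, 10 of 10 tested macrophage genes read higher (1 called), 7 of 8 smooth muscle genes lower and 10 of 11 skeletal muscle genes higher, 5 of each muscle list at an unadjusted p under 0.05, and for 6 d minus 2 d all 10 macrophage genes read higher (1 called). Their part was not tested.

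**Figure D2:**
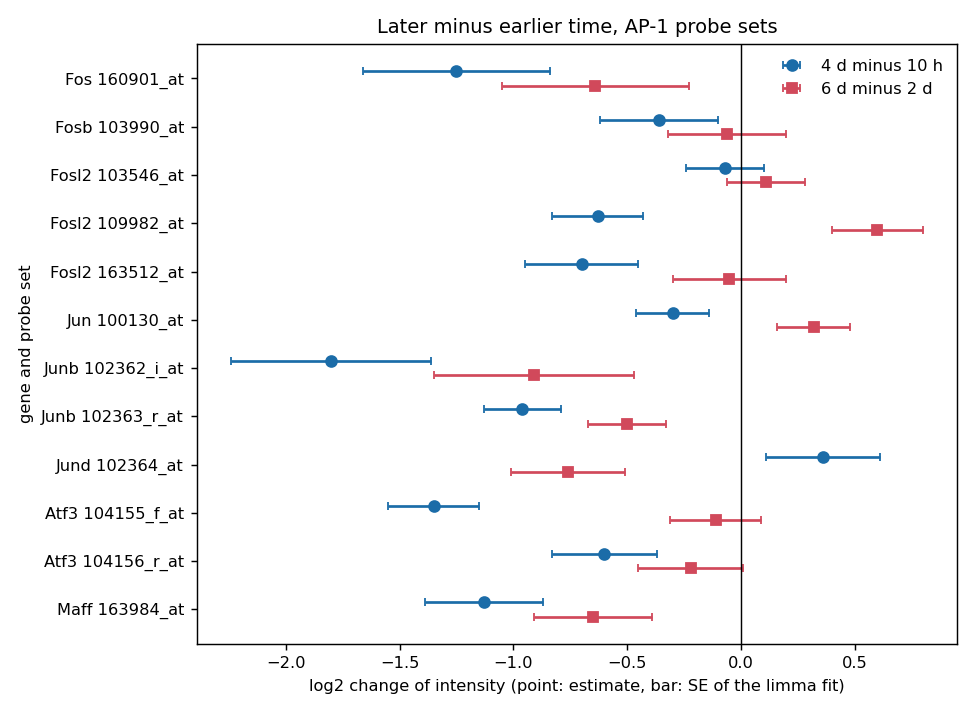
Log2 change of intensity for 4 d minus 10 h (circles) and 6 d minus 2 d (squares) in the 12 tested AP-1 probe sets; points are estimates and bars the SE of the limma fit. For 4 d minus 10 h, 11 of 12 estimates lie below 0, from -1.80 for Junb, and Jund lies above 0 at 0.36.

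Jund, the member most widely expressed at rest, took another course from the rest of the family. Its tested probe set read 6612 in Norm, 6309 and 5330 at 10 h, 27084 and 28750 at 2 d, 8997 and 6166 at 4 d, and 19089 and 14318 at 6 d. All 4 arrays of 2 d and 6 d stood above all others, a pattern shared by 3.94% of all tested probe sets, but with a gap as wide as that of Jund by 0.0891%. Both the pattern and the gap were taken from the Jund values after they were seen, so these shares describe Jund and test nothing. Jund rose at 2 d, by 2.08 ± 0.30 over Norm, a 4.22-fold difference (adjusted p = 0.0228, limma). At 6 d the change was 1.32 ± 0.30 (adjusted p = 0.266). Jund was also the 1 AP-1 probe set of 12 past the threshold in the F test over all times (adjusted p = 0.0207, against 1.24% of all called), and 8 of 12 had an unadjusted p under 0.05 there (19.6% of all). Jund lost its F test call in most fits with 1 sample left out, and in those fits calls over all probe sets fell too.

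Fosl2 fell at 2 d on 109982_at, at a log2 change of -1.0 ± 0.20 from Norm (adjusted p = 0.0453, limma), and both 2 d arrays lay below both Norm arrays. The other Fosl2 probe sets did not pass, with 163512_at at -0.34 and 103546_at, whose 2 d arrays lay under the floor, at -0.23 or beyond. Jund and Fosl2 109982_at were the 2 of 12 called for 2 d minus Norm, against 1.86% of all tested probe sets, and at an unadjusted p under 0.05 there were 2 higher and 1 lower (9% and 9.85% of all). With 1 sample left out, the call of Fosl2 109982_at was lost every time and the Jund call in most fits. Calls over all probe sets became fewer in these fits too, and a group then held 1 sample, so only changes are given. The Jund change was 2.12 without 2 d 1a and 2.03 without 2 d 1b. As a difference of group means, it could not move when a sample of another time was left out. Without Norm 1b, the only Norm array on A, it could not be computed. Over all alternatives of processing and samples it was 1.63 to 2.12. With 1 sample left out, the change of Fosl2 109982_at was -1.21 to -0.79. That of Fosl2 163512_at rested on the Norm pair, at -0.80 without Norm 1a and 0.12 without Norm 1b. The Gapdh 3′ to 5′ ratio on the A arrays stood beside the Jund values, at 1.19 in Norm, 0.909 and 1.11 at 10 h, 4.28 and 3.97 at 2 d, 1.11 and 1.31 at 4 d, and 1.68 and 1.46 at 6 d. The beta-actin ratio was 0.644 in Norm, 0.0862 and 0.517 at 10 h, 3.77 and 4.62 at 2 d, 0.613 and 0.496 at 4 d, and 1.66 and 1.20 at 6 d. Markers also moved: 6 erythroid genes summed to 32683 in Norm, 20169 and 30889 at 10 h, 60674 and 74040 at 2 d, 33868 and 33606 at 4 d, and 55533 and 37137 at 6 d. For 2 d minus Norm, 7 of 7 tested erythroid genes read higher (none called), 8 of 8 cardiac muscle genes lower (4 called), and 3 club and ciliated genes of 9 and 2 skeletal muscle genes of 11 were called lower. Of 11 endothelial genes 7 read higher (1 called) and 4 lower, and of 10 macrophage genes 4 read higher and 5 lower (1 called). Of the 9 club and ciliated genes, 6 read lower and 2 higher. On A, 6 of that list summed to 44624 and 52740 at 2 d, against 30488 in Norm. There 5 alveolar type 2 genes summed to 71905 and 76971 against 53158, and 4 type 1 genes to 62462 and 63312 against 44574. Over all array types, 4 of 9 type 2 genes read higher and 5 lower, and 4 of 7 type 1 genes higher and 3 lower. The part of these cell markers and of RNA integrity in the 2 d values was not tested, and the deposit run cannot be told apart from time in this comparison.

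**Figure D3:**
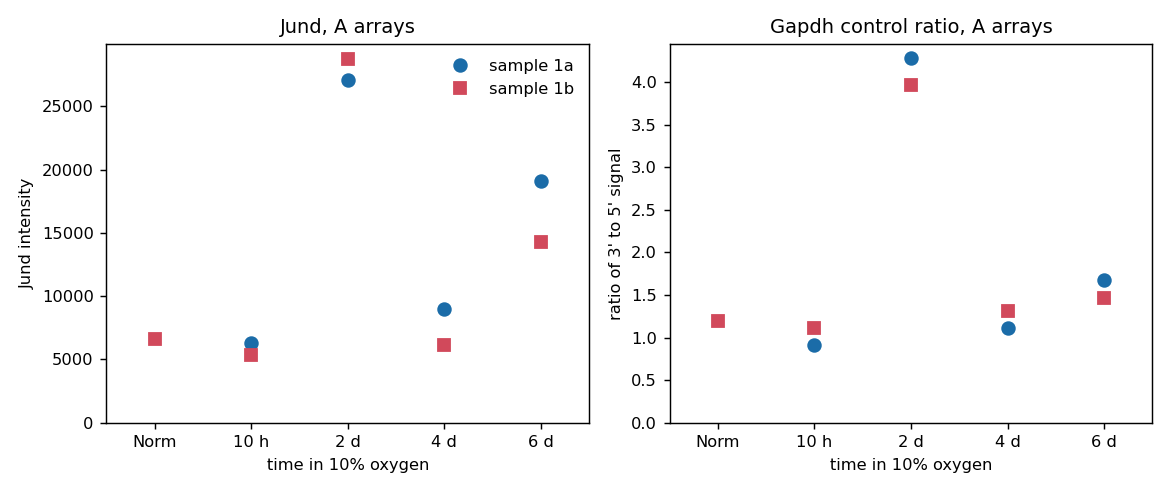
Left, Jund intensity on the 9 A arrays, and right, the 3′ over 5′ signal of the Gapdh control on the same arrays, by time in 10% oxygen with Norm at the left; circles are sample 1a and squares sample 1b. Both panels have their highest points at 2 d (27084 and 28750 for Jund, 4.28 and 3.97 for the ratio), with 6 d next.

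At 4 d and 6 d no AP-1 probe set was called against Norm, where 0.00775% and 0% of all tested probe sets were (limma). At an unadjusted p under 0.05, 1 of 12 read lower at 4 d, Maff (3.18% of all), and 0 higher (2.95% of all), and at 6 d 2 of 12 did so in either direction (9.17% of all), Jund higher and Junb lower. The first Junb probe set read -1.34 ± 0.53 at 6 d (adjusted p = 0.492), a value that rested on 6 d 1b at 146: it was -0.55 without 6 d 1b and, with the remaining array under the floor, -2.12 or beyond without 6 d 1a. The mean of the 4 hypoxia times minus Norm gave no AP-1 call (0% of all), with Jund at 0.85 ± 0.26 and Fosl2 109982_at at -0.39 the 2 of 12 under an unadjusted p of 0.05 (7.79% of all). Every change against Norm uses the same few Norm arrays. Median changes of the 12 were -0.02 at 2 d, -0.22 at 4 d and -0.10 at 6 d, against 0 over all tested probe sets each time.

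The 7 probe sets that were not tested gave at most 1 array above the floor. Fosl1, also called Fra-1, a Fos relative tied to invasion and wound repair, read 27.3 in Norm, 293 and 211 at 10 h, 26.0 and 181 at 2 d, 40.9 and 31.1 at 4 d, and 117 and 202 at 6 d, so that only 10 h 1a stood above the floor. Batf, a factor known from lymphocyte differentiation, read 62.3 to 148. Second probe sets of Fos (60.5 to 214), Atf3 (13.7 to 20.8), Jun on C (13.9 to 93.8), Jund on B (41.9 to 83.3) and Maff on A (29.3 to 211) were never above the floor, and nothing follows from them about these genes.

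Genes known from the literature as AP-1 targets were followed as a list, together with related bZIP factors and the MAP kinase path that activates AP-1. Of 35 listed targets 23 were tested, and none passed for 10 h minus Norm or 4 d minus 10 h. At 10 h 13 read higher and 8 lower than Norm (median 0.32, against 0 over all probe sets), 8 and 0 of them at an unadjusted p under 0.05, against 3.21% and 2.9% of all probe sets. Those with the smallest p were Edn1, the precursor of the vasoconstrictor endothelin-1, at 2.21 (adjusted p = 0.282, limma), Mt1, a metallothionein, at 1.88 (0.297), and the chemokines Cxcl1 and Ccl2 at 0.76 and 0.86 or more (0.444 and 0.470), whose Norm array lay at the floor. From 10 h to 4 d, 16 read lower and 6 higher (median -0.46), 11 and 0 at an unadjusted p under 0.05, against 4.35% and 3.73% of all. Sphk1, which makes sphingosine 1-phosphate, read -1.59 (adjusted p = 0.0615), Mt1 -1.98 (0.0823), Tnfrsf12a, the receptor of TWEAK, -1.12 (0.134), and Cxcl1 -0.76 or beyond (0.176).

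Past the threshold of the F test over all times were the targets Sphk1 (adjusted p = 0.0218, limma), Mt1 (0.0415) and Mmp3, a matrix metalloproteinase (0.0415), and the bZIP factor Cebpd (0.0214). Cebpd, an acute-phase regulator, read 1.46 ± 0.20 for 10 h minus Norm (adjusted p = 0.259), rose at 2 d by 1.01 ± 0.20 over Norm (adjusted p = 0.0458) and read -1.43 ± 0.16 for 4 d minus 10 h (adjusted p = 0.0540). It was the 1 called among 25 tested of 30 related bZIP factors in any comparison with Norm, near the 1.86% of all probe sets called at 2 d. For 4 d minus 10 h, 17 of the 25 read lower, against 48.5% of all probe sets, and 8 higher (median -0.22, none called), with Cebpb at -1.01 (adjusted p = 0.145), the small Maf Mafk at -0.70 (0.208) and the stress factor Atf4 at -0.69 (0.390). Of 36 genes of the MAP kinase path 31 were tested and none passed in any comparison. At 10 h 21 read higher, against 48.6% of all probe sets, and 10 lower (median 0.13), with Map3k8 at 0.57 or more (adjusted p = 0.624), and at 2 d Srf read 0.66 (0.0555) and Mapk11 0.94 (0.0674).

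**Figure D4:**
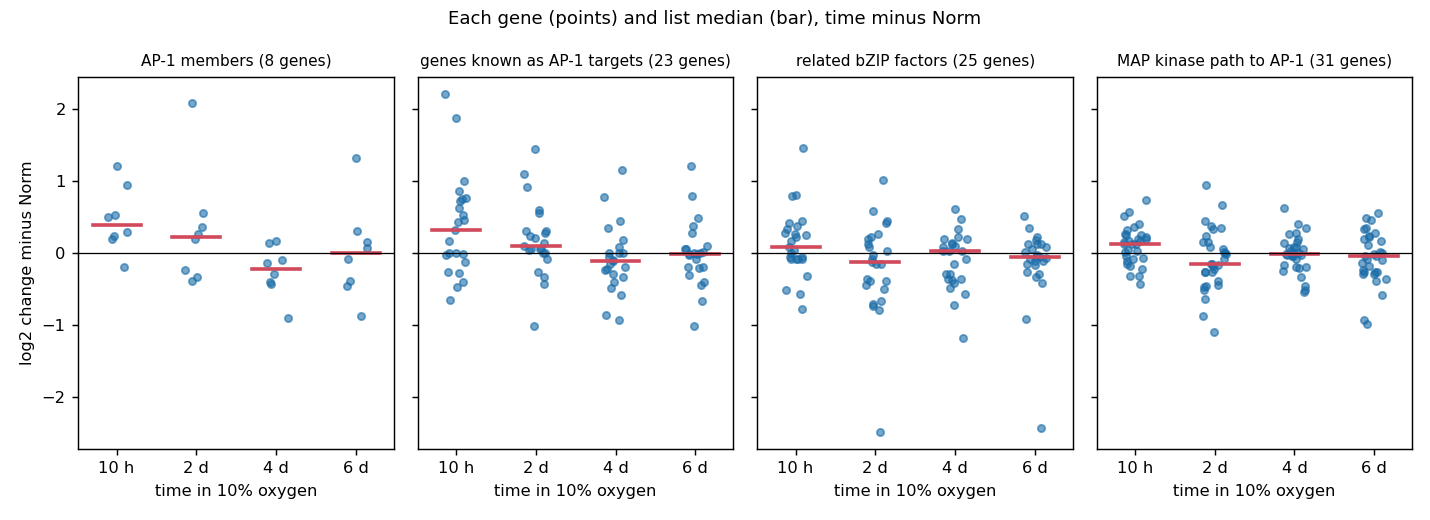
Log2 change minus Norm of each tested gene (points, 1 representative probe set per gene) and the median (bars) at 10 h, 2 d, 4 d and 6 d, for AP-1 members (8 genes), known AP-1 targets (23), related bZIP factors (25) and the MAP kinase path (31). The medians at 10 h are 0.39, 0.32, 0.08 and 0.13, and those at 4 d are -0.22, -0.11, 0.03 and -0.01.

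Likeness of course was measured as Pearson's r of log2 level over the 9 A arrays, among 5247 genes, as a description. Nearest to Fos were Bdnf (0.949), Znrd1 (0.947), Fdx1 (0.94), Slc1a5 (0.924) and Osmr (0.917). Nearest to Jun were Tmem126a (0.962), Xdh (0.931), Supt5 (0.928), Per1 (0.927) and Bag6 (0.926), and to the second Junb probe set Cmip (0.959), Ptov1 (0.954), Cry1 (0.937), Pgm2 (0.927) and Ace (0.919). Nearest to Atf3 104155_f_at were Mt2 (0.965), Fst (0.963), Ccl12 (0.949), Cxcl1 (0.948) and Fkbp5 (0.943). Among the members, r was 0.68 for Fos with Atf3 104155_f_at and with the first Junb probe set, 0.55 for Fos with Jun, 0.40 for Fos with the second Junb probe set, 0.12 for Fos with Fosb, -0.09 for Jun with the second Junb probe set, -0.60 for Fos with Jund and -0.82 for Jun with Jund. The 36 pairs on A spanned -0.82 to 0.76. All these points share 9 arrays, their RNA and their deposit runs.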

How the data were processed

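Lung RNA was measured on MG-U74 version 2 arrays of types A, B and C in 5 groups of 2 samples, grouped by the sample titles. The deposited values were linear probe set intensities, 1 per array, and the sources used here do not give the summarising software. All 29 arrays used had trimmed means of 800.2 to 800.4 (2% left out at each end), so no further normalization was applied. The 1 Norm array of type A found among the B values was left out.

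Values were raised to the 40th percentile of the array type and log2 was taken. Probe sets above this floor on at least 2 arrays were tested with limma 3.58.1 in R 4.3.3 (5 group means per array type, eBayes with trend, two-sided), with Benjamini-Hochberg adjustment over 25801 probe sets and a threshold of 0.05. The fit was tested on simulated data. The number of arrays limits the precision.

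The members, gene lists and comparisons were chosen with earlier results of these data known. All member probe sets were named, list genes by the threshold or up to 4 by smallest p, and 5 most similar genes for Fos, Jun, Junb and Atf3. Symbols came from the platform annotation, which can be old, and coordinates and sequences from RefSeq (GRCm38.p6). Alternatives covered scaling, floor, filter, trend, samples, replicate block and adjustment.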

Additional observations from a re-analysis of the deposited data

How the results depend on the processing

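Of 2007 recomputed member values, 26 lost a call, 3 gained one and none that was called turned. The other 1978 kept their side of the threshold, though 50 of them, uncalled, differed in sign. For 2 d minus Norm, with 2 of 12 AP-1 probe sets called by limma, the count was 1 with median scaling, with the floor at the 20th percentile, without the variance trend and with the replicate block, and 0 without the filter, with only the compared groups and without the 6 d group. Calls over all probe sets moved too, to 380 of 36701, 0 of 25801 and 16 of 25801 in these last 3, against 480 of 25801. Leaving out 1 sample lowered the number of calls over all probe sets, and which members were called changed too. For the F test, 1 was called, against 319 of 25801 over all probe sets. The count was 4 with a pseudocount of 100 (623 of 25801 over all) and with the filter at 5 arrays (672 of 22232). It was 2 when adjusted within an array type (409 of 25801), and 0 without the 2 d or the 6 d group (0 and 33 of 25801). Leaving out 1 sample moved the count and the calls over all probe sets alike. For late minus early, with 0 called and 6 of 12 lower at an unadjusted p under 0.05, it was 1 without the filter (the second Junb probe set). For 4 d minus 10 h, with 0 called, the change of Atf3 104155_f_at was -1.47 to -1.23 over the alternatives. At an unadjusted p, counted after seeing the data, 4 d minus 10 h had 5 to 8 lower when 1 sample was left out, against 8, and 10 h minus Norm 2 to 4 higher, against 3. The causes were not tested. Without Norm 1b no A comparison with Norm could be run.

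No strong pairing of samples by the letters 1a and 1b was seen: deviations of same-lettered samples correlated at -0.16 to 0.13. With 2 samples a group, a weaker pairing could not be told. With the replicate block, 1 probe set (Jund) was called at 2 d. The limits are 2 samples a group, 1 Norm array on A, a 2 d group apart in RNA control ratios, runs of deposit that split 2 d and 6 d from the rest, and probe sets near the floor, where changes are bounds.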

Other observations

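Among the related bZIP factors, Dbp and Nfil3, which act in the output of the circadian clock, read below Norm at every time, though none of these values passed the threshold. Dbp read -0.57 at 10 h, -2.49 or beyond at 2 d, -1.18 at 4 d and -2.44 at 6 d (SE 0.83 each, adjusted p = 1, 0.156, 0.885 and 0.415, limma). Nfil3 read -0.78 at 10 h, -0.79 at 2 d, -0.73 at 4 d and -0.92 or beyond at 6 d (SE 0.24 each, adjusted p = 0.605, 0.124, 0.675 and 0.311). The labels give no clock time of sampling. Maf, a large Maf protein with an activation domain, read 1.23 ± 0.26 for 6 d minus 2 d (adjusted p = 0.112).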
